A study of Mus musculus with 20 samples.

Results

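The genes that encode the subunits of the oxidative phosphorylation complexes were followed in a C57BL/6 mouse model of colorectal liver metastasis (CRLM). Members were the protein-coding genes whose names begin with Nduf (followed by a, b, c, s or v and a digit), Uqcr, Cox4 to Cox8 (followed by a letter), Atp5 or mt-. This rule took 94 of 54532 genes, under 93 symbols, since Atp5o is listed at 2 loci. Of these, 81 are encoded in the nucleus and 13 in the mitochondrial genome. The nuclear members comprised 37 genes named for complex I, 8 for complex III, 18 for complex IV and 18 for complex V. The rule leaves out Ndufab1, Cyc1 and the complex II genes, and takes in Atp5s, a factor related to the ATP synthase that is no subunit proper.

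Bulk RNA-Sequencing gave 14 tissue libraries and 6 libraries of sorted cells, all from wild-type mice of 6 to 8 weeks. Normal liver (con, day 0, 2 libraries) came from mice given normal saline. All other groups came from mice given 1000000 Mc38 cells, a colon cancer line from the same mouse strain. These were tumor-free liver remote from the tumor (L-con, day 12, 1 library), low-content tumor tissue (Lt, day 9, 2), medium-content tissue (Mt3 at day 9, Mt2 and Mt1 at day 11, 2 each) and high-content tissue (Ht, day 12, 3). The sorted cells were F4/80+ cells (F4/80+TAM, 3) and CD11b+ cells (CD11b+TAM, 3), taken with microbeads from medium-content tumors at day 11. The tumor samples were biopsies that held liver beside the metastasis, so that their cell makeup differs. According to the methods 2 livers were prepared for each tissue group except L-con. Whether L-con shares a mouse with Ht, and whether the sorted libraries came from separate mice, is not given in the sources used here, and p-values measure the spread between these samples. In such bulk samples, fewer cells of a type and less RNA per cell cannot be told apart.

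Complexes I, III and IV of the inner mitochondrial membrane pass electrons to oxygen and pump protons, and complex V, the ATP synthase, uses the proton gradient to make ATP. Complex I, the NADH dehydrogenase, is the entry point for NADH, complex III hands electrons to cytochrome c, and complex IV is the cytochrome c oxidase. The mitochondrial genome encodes core subunits of these complexes, which are transcribed inside the organelle, while the other subunits are transcribed in the nucleus and imported. Hepatocytes are rich in mitochondria. The comparison of the nuclear and the mitochondrial members addresses whether both sets of transcripts moved together as the metastases took up more of the tissue.

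Libraries held 16032085 to 18246623 counts in the tissue table and 17785496 to 20548370 in the table of sorted cells, at which 3 counts correspond to 0.146 to 0.187 CPM (counts scaled to a library of 1000000). The hepatocyte markers (13 of 13 found, none at 0 throughout any group) summed to 187000 to 217000 CPM in con, 28800 to 111000 in Mt2, 3880 to 5400 in Ht, 206 to 363 in F4/80+TAM and 77.5 to 236 in CD11b+TAM. The macrophage markers (13 of 13 found, none at 0 throughout any group) summed to 709 to 994 CPM in con, 2240 to 2280 in Ht and 12500 to 19300 in CD11b+TAM, against 14300 to 17400 in F4/80+TAM. Neutrophil markers (9 of 9 found, 1 at 0 throughout con, throughout Lt and in L-con) summed to 1310 to 4000 CPM in CD11b+TAM and 177 to 556 in F4/80+TAM. Xist had 0 to 3 counts in every tissue library and 5547 to 21805 in the sorted cells, whereas the Y-linked Ddx3y had 348 to 1421 and 0. The labels give the tissue mice as male and the study's methods give female mice. Libraries Ht_1 and Ht_3 were made from identical material according to the methods and were summed to 1 sample (Ht_1+3), which left Ht with 2 samples. Library CD11b+TAM_3 stood apart from the other 2 of its group, as described with the sorted cells.

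The sequence of the members bears on how their counts can be read. For 5 of the 13 mitochondrial members, over 95% of all 100-base windows of the transcript also occur, letter for letter, in a transcript of another gene. Their partners are pseudogenes that lie side by side on chromosome 1 of GRCm38. mt-Co2 (MT:7013-7696) shares 99.5% of its windows with other genes, chiefly Gm28661 (chr1:24614885-24615565, minus strand). The values are 99.5% for mt-Atp6, 99.9% for mt-Co3, 97.6% for mt-Nd3 and 98.5% for mt-Nd4l. mt-Nd4 shares 60.8%, mt-Co1 30.8%, and 5 mitochondrial members share none. To show how close such a pair is, mt-Nd4l (MT:9877-10173, plus strand, a complex I core subunit) is printed 5′ to 3′ from the GENCODE transcripts. The bases in capitals are those without a counterpart in its copy Gm10222 (chr1:24612407-24612700, minus strand), and every other base is the same in both.

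mt-Nd4l: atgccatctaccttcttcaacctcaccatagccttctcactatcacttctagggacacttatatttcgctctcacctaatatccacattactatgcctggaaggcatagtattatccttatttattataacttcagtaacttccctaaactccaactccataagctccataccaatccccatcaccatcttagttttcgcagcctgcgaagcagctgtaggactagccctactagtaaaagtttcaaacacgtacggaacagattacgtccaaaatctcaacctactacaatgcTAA

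The copy is 294 bases long and mt-Nd4l 297, and the only difference is the 3 bases at the end. Counts of mt-Nd4l ran from 3 to 949 over the libraries and those of Gm10222 from 26 to 348. The 6 members mt-Co2, mt-Co3, mt-Atp6, mt-Atp8, mt-Nd3 and mt-Nd4l held only 0.491 to 1.36% of all mitochondrial member counts, while mt-Co1 alone held 38.4 to 63.1%. How reads that match several places were counted is not given in the sources used here, so the levels of mt-Co2, mt-Co3, mt-Atp6, mt-Nd3 and mt-Nd4l are uncertain. mt-Atp8 (MT:7766-7969) lies after mt-Co2 and overlaps mt-Atp6, whose copies Gm28661 and Gm10925 are neighbors on chromosome 1. The window search covered annotated transcripts only, so whether the stretch between these copies matches mt-Atp8 was not tested. Its level may be uncertain too. The nuclear members were less affected: 52 of 81 shared no window with another gene, and Atp5l (69%, chiefly with the pseudogene Gm10221) and the second locus of Atp5o (77%, chiefly with Donson, and 0 counts in every library) were the nuclear members over 50%. mt-Nd6 lies on the strand opposite to the other mitochondrial members, and the strand setting of the counting is not given in the sources used here, so its reads cannot be told apart from those of antisense transcripts.

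Promoters, taken from RefSeq for GRCm38.p6 as 250 bases before to 50 after the start, were matched for 65 of the 81 nuclear members, which gave 70 promoters. They were searched on both strands for the letters bound by known regulators of respiratory genes: NRF1 (GCGCA and GCGC with any 1 base between them), GABPA (CCGGAAG), YY1 (AAGATGGC) and the estrogen-related receptors (AAGGTCA). The NRF1 letters stood in 16 member promoters (22.9%) and in 4.6% of all 32851 promoters. For GABPA the shares were 20% and 8.86%, for YY1 14.3% and 2.75%, and for the estrogen-related receptors 10% and 4.72%. At least 1 of the 4 was present in 51.4% of member promoters and in 18.9% of all promoters. The median GC content was 57.2% in member promoters and 52.7% in all. Shown are the promoters of Ndufs6, the complex I member with the lowest fold change from con to Ht, of the subunit c paralogs Atp5g1 and Atp5g2, which differed in that comparison, and of Cox7a2l, whose value moved least among the widely expressed complex IV members. These 4 and the mt-Nd4l pair were chosen after their values and matches had been seen. Matches are in capitals.

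Ndufs6 (chr13:73328433-73328732, minus strand): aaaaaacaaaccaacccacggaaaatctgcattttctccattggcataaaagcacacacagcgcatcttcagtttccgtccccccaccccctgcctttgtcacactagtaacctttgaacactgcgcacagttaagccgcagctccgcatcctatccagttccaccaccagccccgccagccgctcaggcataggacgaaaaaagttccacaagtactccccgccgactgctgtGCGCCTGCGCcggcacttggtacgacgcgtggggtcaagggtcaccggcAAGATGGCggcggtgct
Atp5g1 (chr11:96075582-96075881, minus strand): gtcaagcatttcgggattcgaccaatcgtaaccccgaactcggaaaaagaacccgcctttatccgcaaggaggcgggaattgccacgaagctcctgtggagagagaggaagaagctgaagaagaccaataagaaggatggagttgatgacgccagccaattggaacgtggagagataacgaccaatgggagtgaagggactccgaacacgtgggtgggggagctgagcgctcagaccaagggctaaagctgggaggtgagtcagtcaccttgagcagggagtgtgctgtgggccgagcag
Atp5g2 (chr15:102670998-102671297, minus strand): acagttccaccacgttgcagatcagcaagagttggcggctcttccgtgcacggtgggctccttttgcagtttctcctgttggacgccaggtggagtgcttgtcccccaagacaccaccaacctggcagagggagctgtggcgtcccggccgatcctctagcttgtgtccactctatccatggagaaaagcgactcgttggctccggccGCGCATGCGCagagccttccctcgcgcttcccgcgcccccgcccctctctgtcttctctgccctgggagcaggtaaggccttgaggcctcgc
Cox7a2l (chr17:83514284-83514583, minus strand): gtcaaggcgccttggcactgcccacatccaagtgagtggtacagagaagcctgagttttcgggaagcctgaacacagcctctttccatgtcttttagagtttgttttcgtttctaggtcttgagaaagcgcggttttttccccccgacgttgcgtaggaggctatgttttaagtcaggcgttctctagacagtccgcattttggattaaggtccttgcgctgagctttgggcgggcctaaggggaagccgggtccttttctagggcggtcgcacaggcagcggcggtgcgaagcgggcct

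Ndufs6 holds the NRF1 and the YY1 letters, Atp5g2 the NRF1 letters on both strands at the same place, and Atp5g1 and Cox7a2l hold none of the 4. Among nuclear members with a promoter, at least 1 motif was present in 29 of 52 (55.8%) that were called lower in Ht than in con and in 6 of 11 (54.5%) that were not. A match describes these letters only.

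Both sets of members took a smaller share of the counts in Ht than in con, and the mitochondrial set by more. The mitochondrial members held 4.54 and 5.43% of all counts in the con libraries and 5.19% in L-con. The Lt libraries had 4.43 and 3.86% and the Mt3 libraries 3.85 and 4.19%. For Mt2 the values were 2.8 and 1.97%, for Mt1 2.44 and 2.03%, and for Ht_1, Ht_2 and Ht_3 they were 1.41, 1.55 and 1.56%. All Ht libraries lay below every other tissue library, and the Mt2 and Mt1 libraries below those of con, Lt and Mt3. The nuclear members held 1.15 and 1.18% in con, 0.831 to 1.18% over Lt and the 3 medium-content groups, and 1.11, 0.844 and 0.842% in Ht. The nuclear share in Ht_1 thus lay near that of con, and in the other Ht libraries below it. Ht_1 also differed from Ht_2 and Ht_3 by gene length, as described with the sorted cells.

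The ratio of mitochondrial to nuclear member counts was 2.09 ± 0.15 on the log2 scale in con (SD, n = 2), and 0.74 ± 0.19 in Ht (n = 2 samples). Between these, Lt had 1.84 ± 0.1, Mt3 had 1.98 ± 0.05, and the day 11 groups Mt2 and Mt1 had 1.26 ± 0.33 and 1.41 ± 0.17 (n = 2 each). In counts, the mitochondrial members had 3.95 and 4.59 times the counts of the nuclear members in con. They had 1.27, 1.84 and 1.85 times in Ht_1, Ht_2 and Ht_3, of which Ht_1 stands apart by gene length. From con to Ht the log2 ratio was lower by a mean of 1.35 (difference -1.35), from Mt to Ht by 0.81 (difference -0.81), and the groups did not overlap in either. From con to Lt the difference was -0.25 without overlap, and from Lt to Mt it was -0.29 with overlap. These ratios do not depend on the scaling between libraries. No p is given for the ratio, which is a summary over members chosen with earlier results known. The summed hepatocyte markers moved in the same direction. From con to Ht the erythroid markers (5 of 5 found) went from 394 to 537 CPM to 24.8 to 41.6, the endothelial markers (13 of 13) from 742 to 1010 CPM to 308 to 333, and the fibroblast and stellate cell markers (10 of 10) from 304 to 423 CPM to 6480 to 7310, with none at 0 throughout con or Ht. The markers listed for epithelial tumor (8 of 8 found, Krt20 at 0 throughout con and Ht) went from 536 to 583 CPM to 118 to 226. They were thus higher in con, from mice without Mc38 cells, than in high-content tissue, so this list does not follow tumor content here. The neutrophil markers (9 of 9 found, Ly6g at 0 throughout con) went from 5.61 to 14 CPM to 216 to 258. The T and B cell markers (9 of 10 found) went from 4.23 to 13.6 CPM to 19 to 27.3. The part of these cell types in the members' values was not tested.

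**Figure D1:**
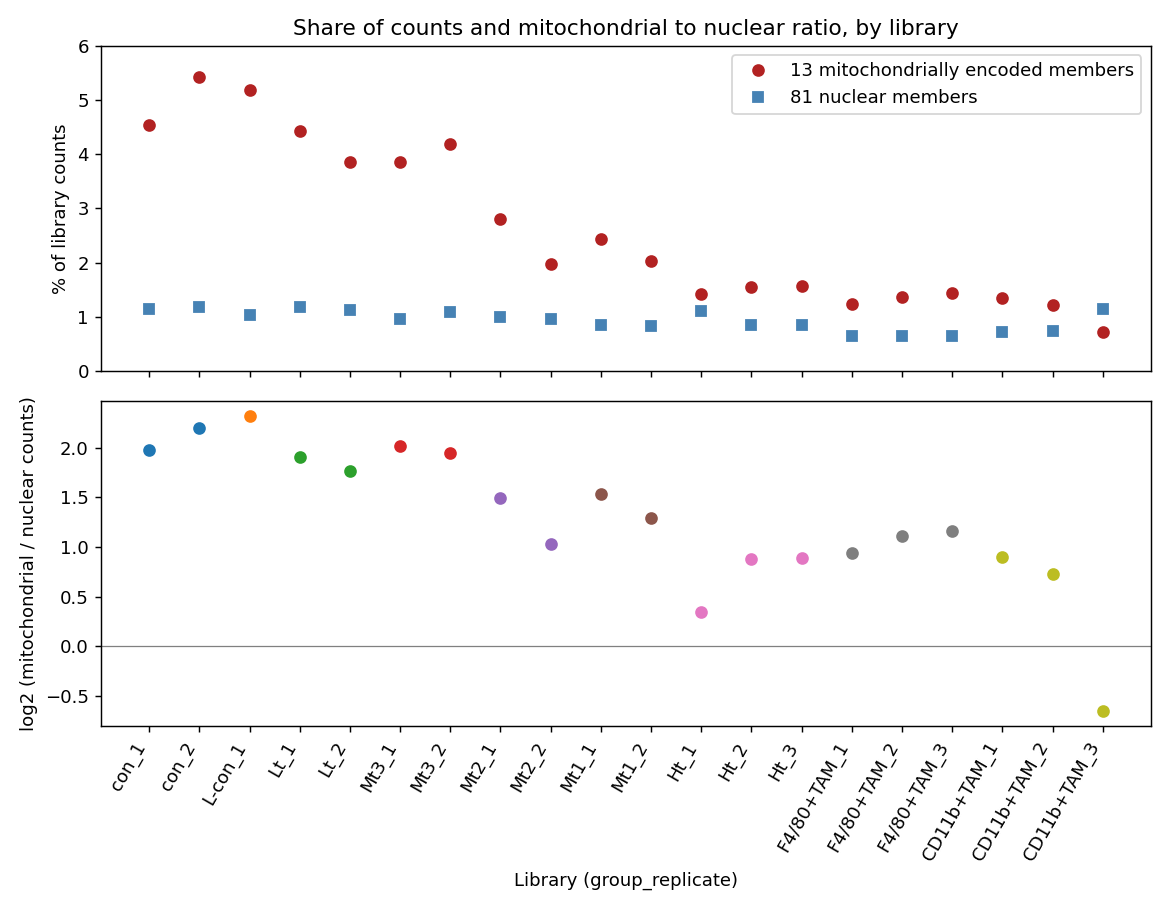
Upper panel: percent of each library's counts on the 13 mitochondrially encoded (circles) and the 81 nuclear (squares) members. Lower panel: log2 ratio of these counts, 1 point a library, colored by group. The mitochondrial share is 4.54 to 5.43% in con and 1.41 to 1.56% in Ht, and CD11b+TAM_3 is the library whose ratio lies below 0.

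From con to Ht, 76 of the 90 members tested fell and 1 was higher, a gene being called where the adjusted p was 0.05 or less and the log2 fold change 1 or more in either direction. Of all 17187 genes tested, 24.1% were called lower and 25.8% higher. All 13 mitochondrial members fell, with a median log2 fold change of -3.12, and 63 of 77 nuclear members fell, with a median of -1.5 (all genes, 0.09). The nuclear result depends on the scaling: when libraries were scaled by total counts instead of TMM (edgeR's trimmed mean of M-values), which moves the median of all genes to 1.28, 5 nuclear members were called lower and 2 higher (13.1% and 51.3% of all genes), with a median of -0.31. The 13 mitochondrial members were called lower under that scaling too, with a median of -1.93. Relative to the median of all genes, the nuclear median was -1.59 with TMM and -1.58 with total counts, and the mitochondrial median -3.21 and -3.2.

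Among the mitochondrial members, mt-Co1, the catalytic subunit of complex IV, had the highest level, at 27600 and 31600 CPM in con, 23400 and 15700 in Lt, and 4290 and 4680 in Ht. It fell by 2.72 on the log2 scale (log2 fold change -2.72, SE 0.66, adjusted p = 0.0058), and its con and Ht samples were far apart. mt-Cytb, cytochrome b of complex III, had 12800 and 14200 CPM in con and 1730 in both Ht samples (-2.96, SE 0.55, adjusted p = 0.00144). mt-Nd2, a complex I core subunit, had 7000 and 8420 CPM in con, 6930 and 4820 in Lt, and 576 and 622 in Ht. Its log2 fold change was -3.69 (SE 0.58, adjusted p = 6e-04), the lowest of the mitochondrial members other than mt-Atp8 and the 5 with near-complete copies, which ran from -4.02 (mt-Atp6) to -3.11 (mt-Co2). The highest was that of mt-Nd6, at -2.5 (SE 0.42, adjusted p = 0.000832), with 1080 and 1370 CPM in con and 209 and 223 in Ht. The 7 members with neither a near-complete copy nor very few counts had a median of -2.81, and the 5 with near-complete copies a median of -3.86. mt-Nd1, mt-Nd4 and mt-Nd5 lay between, at -2.66, -3.31 and -2.81.

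**Figure D2:**
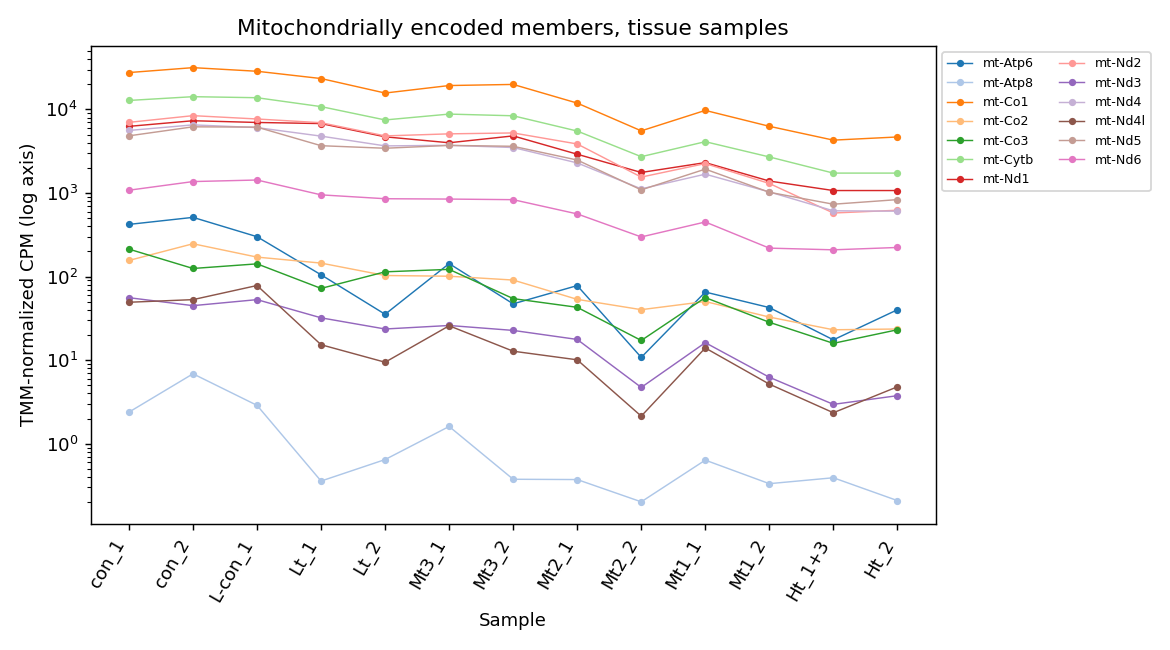
TMM-normalized CPM (log axis) of the 13 mitochondrially encoded members in each tissue sample, 1 line a gene. The lines of mt-Co1 (27600 and 31600 CPM in con, 4290 and 4680 in Ht) and mt-Nd2 (7000 and 8420, then 576 and 622) show the fall, with Mt2_2 and Mt1_2 below Mt2_1 and Mt1_1.

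Complex III was the class with the lowest nuclear median, at -2.01, and all 8 of its members fell. Uqcrfs1, the Rieske iron-sulfur subunit, had 402 and 373 CPM in con and 60.6 and 67.2 in Ht, which do not overlap (log2 fold change -2.6, SE 0.39, adjusted p = 0.000482). Uqcr11 had 177 and 198 CPM in con against 43.8 and 29.1 in Ht (-2.36, SE 0.33, adjusted p = 0.000402), and Uqcr10, at the other end of this class, 164 and 159 against 83.2 and 62.5 (-1.15, SE 0.24, adjusted p = 0.00275). Uqcrfs1 and Uqcr11 kept negative values under total-count scaling (-1.41 and -1.17, both called), whereas Uqcr10 did not (0.04).

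Complex I members fell in 31 of 37, with a median of -1.33. Ndufs6, an accessory subunit, had 92 and 108 CPM in con, 91.8 and 72.9 in Lt, 60.1 and 26.8 in Mt2 and 17.4 and 11 in Ht (log2 fold change -2.81, SE 0.44, adjusted p = 0.000593; -1.63 with total counts). The 7 nuclear core subunits had a median of -1.71 and the 30 others of -1.33. Ndufa4, named for complex I and now assigned to complex IV, had 416 and 404 CPM in con and 123 and 105 in Ht (-1.84, SE 0.33, adjusted p = 0.0012). Ndufa2 had 120 and 139 against 75.7 and 53.2 (-1, SE 0.27, adjusted p = 0.0098). With total counts Ndufa4 had -0.66 and Ndufa2 0.19, neither called. Ndufa12 stood apart from its class: 18 and 25.1 CPM in con and 17.8 and 21.2 in Ht overlapped, and its log2 fold change of -0.15 (SE 0.39, adjusted p = 0.756) did not pass the test. Ndufa4l2, the paralog of Ndufa4, had 2.57 and 3.47 CPM in con and 1.32 and 1.71 in Ht (adjusted p = 0.0574). With total counts Ndufa12 turned to 1.03 and Ndufa4l2 to 0.18, neither called.

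Complex V members fell in 14 of 17 tested, with a median of -1.46. Atp5a1 and Atp5b, the alpha and beta subunits of the catalytic head, had the highest levels per length of their class, 509 ± 16.7 and 496 ± 11.6 FPKM in con and 179 ± 2.47 and 153 ± 2.8 in Ht (SD, n = 2; FPKM divide the CPM of the fit of tissue and sorted cells together by the deposited gene length). Their log2 fold changes in CPM were -1.53 (SE 0.34, adjusted p = 0.0034) and -1.71 (SE 0.33, adjusted p = 0.00177), but -0.34 and -0.53 with total counts, neither called. The 3 genes for subunit c of the rotor, which give the same mature protein, differed. Atp5g1 had 218 and 166 CPM in con and 43.2 and 45.6 in Ht (-2.11, SE 0.36, adjusted p = 0.000854), and Atp5g3 465 and 498 against 156 and 142 (-1.69, SE 0.28, adjusted p = 0.000722). Atp5g2 had 168 and 144 against 131 and 134, a log2 fold change of -0.23 (SE 0.17, adjusted p = 0.247) that becomes 0.95 with total counts. With total counts Atp5g1 had -0.92 and Atp5g3 -0.51, neither called. The difference between the paralogs was not itself tested.

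Complex IV members fell in 10 of 15 tested, with a median of -1.5. Of the pairs of paralogs with tissue-specific members, the widely expressed ones fell: Cox4i1 had 545 and 557 CPM in con and 201 and 177 in Ht (-1.54, SE 0.31, adjusted p = 0.00196), Cox6a1 431 and 526 against 176 and 137 (-1.61, SE 0.33), Cox6b1 197 and 195 against 71.7 and 57.2 (-1.6, SE 0.25), Cox7a2 242 and 192 against 66.6 and 59.8 (-1.78, SE 0.32) and Cox8a 291 and 344 against 183 and 126 (-1.04, SE 0.27). With total counts Cox4i1, Cox6a1, Cox6b1 and Cox7a2 had -0.36, -0.42, -0.41 and -0.59, none of them called, and the direction for Cox8a turned (0.15). Cox7a2l, a relative of Cox7a2, had 159 and 145 CPM in con and 125 and 127 in Ht (-0.28, SE 0.16, adjusted p = 0.159; 0.91 with total counts). Their paralogs were near the floor in tissue. Cox6a2, a muscle isoform, was called higher on 1 and 0 counts in con and 16, 9 and 5 in the Ht libraries, with 0.0885 and 0 CPM in con and 0.392 and 0.313 in Ht (adjusted p = 0.0416). Cox4i2 had 3 counts in each con library and 16, 4 and 7 in Ht, and Cox6b2 0 and 2 against 10, 6 and 12. Cox7a1 had 0.443 and 1.65 CPM in con and 0.41 and 0.174 in Ht. Cox7b2, Cox8b, Cox8c and the second Atp5o locus had too few counts in any fit to be tested.

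**Figure D3:**
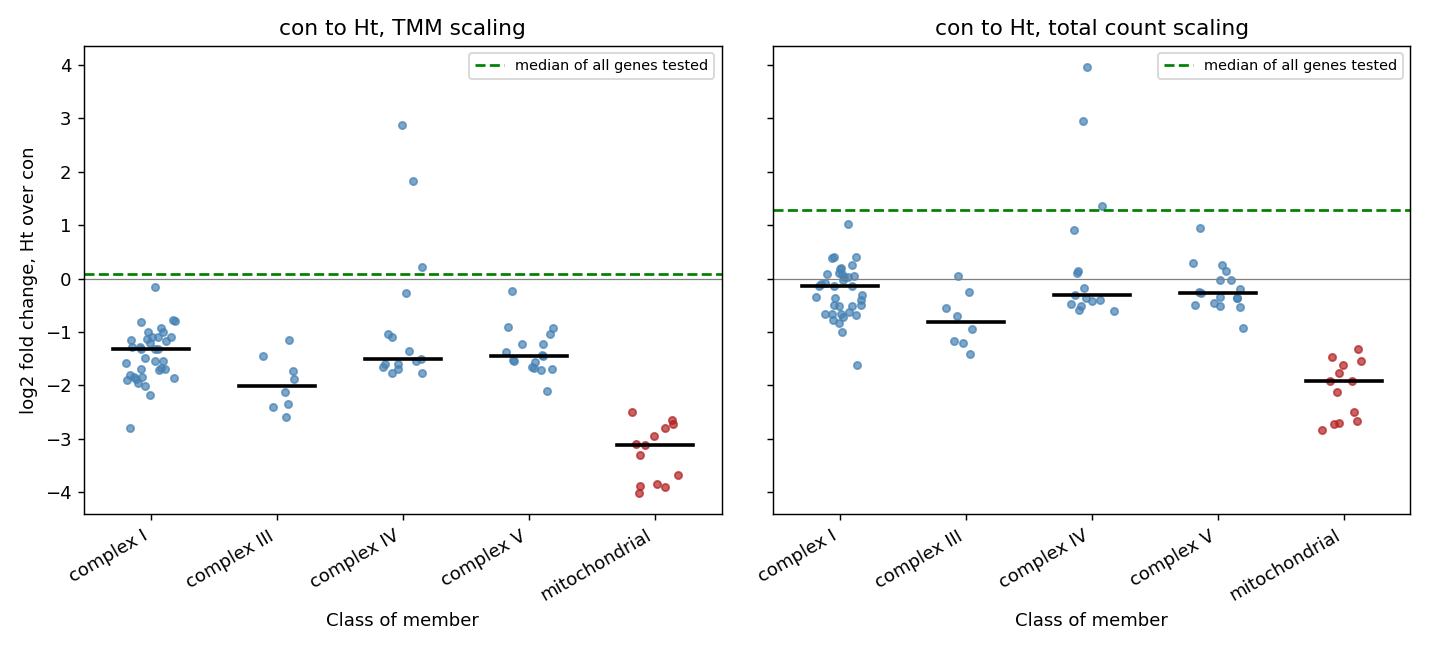
log2 fold change from con to Ht of each member tested, by class, with TMM scaling (left) and total-count scaling (right). Black bars are class medians and the dashed line is the median of all 17187 genes; mitochondrial members lie below all nuclear medians in both panels (medians -3.12 and -1.93).

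**Figure D4:**
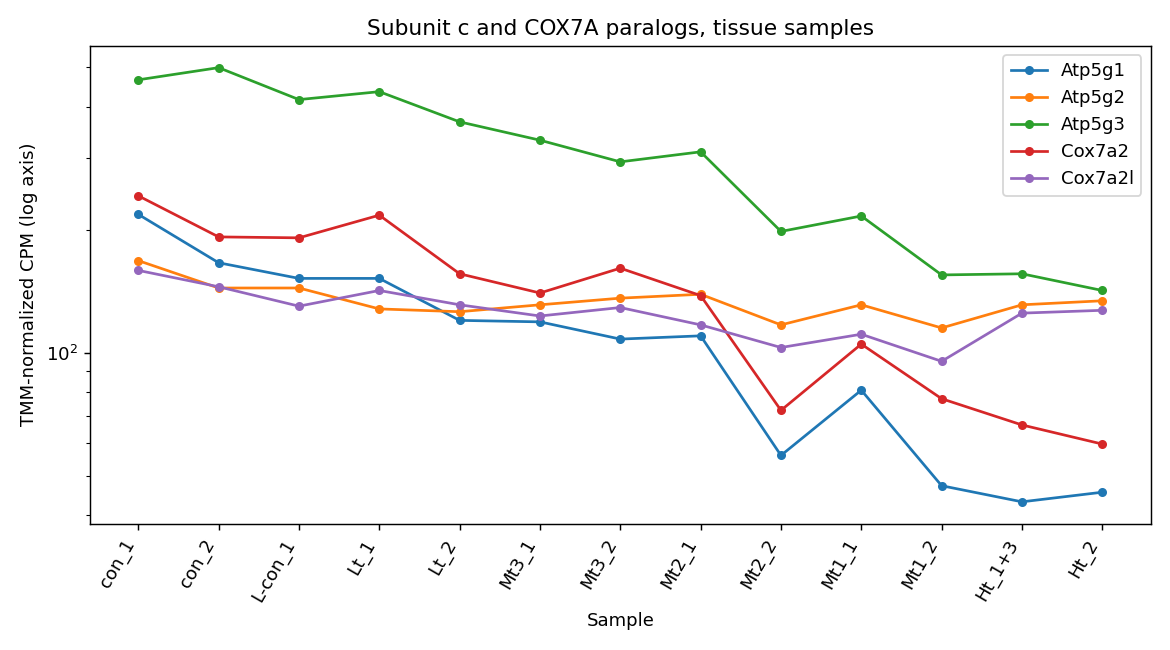
TMM-normalized CPM (log axis) of the subunit c genes Atp5g1, Atp5g2 and Atp5g3 and of Cox7a2 and Cox7a2l in each tissue sample. Atp5g1 goes from 218 and 166 CPM in con to 43.2 and 45.6 in Ht, while Atp5g2 stays between 115 and 168 in all samples.

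Of the steps along the series, few members passed the test from con to Lt and from Lt to Mt. From con to Lt, 1 member was called, mt-Atp8, with 27 and 83 counts in con and 5 and 10 in Lt (log2 fold change -3.18, SE 0.81, adjusted p = 0.0299). Of all genes 0.256% were called lower and 12.4% higher. Whether mt-Atp8 has a copy on chromosome 1 was not tested. The call is lost without con replicate 2 or without either Lt replicate, and 0 members were called then. The nuclear median was -0.18 and the mitochondrial -0.63 (all genes, 0.1), and with total counts the nuclear median was 0.1. Without Lt replicate 1 the nuclear median was -0.38, and without Lt replicate 2 it was -0.05. From Lt to Mt, the mean of Mt3, Mt2 and Mt1, edgeR called 0 members and 0% of genes, with 59 of 90 members and 19.1% of all genes at an unadjusted p under 0.05. DESeq2 called 9 members and 242 of 17187 genes. With TMM the medians were -0.65 for nuclear and -0.89 for mitochondrial members (all genes, -0.02). With total counts each member tested lay higher than with TMM. Uqcrfs1, for example, had -0.35 in place of -0.65 and mt-Cytb -0.57 in place of -0.89. Without Mt2 replicate 1, 15 members were called lower, and 778 of 17179 genes were called in either direction.

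From Mt to Ht, 14 members fell and none was called higher, while 13.4% of all genes were called lower and 1.5% higher. These 14 were 8 mitochondrial members and 6 nuclear ones: Ndufa6, Ndufs1 and Ndufs6 of complex I and Uqcr11, Uqcrfs1 and Uqcrq of complex III. Without the fold threshold 24 members were called lower, the same 8 mitochondrial and 16 nuclear ones, with 16.5% of all genes lower and 6.1% higher. Uqcrfs1 had a log2 fold change of -1.31 (SE 0.32, adjusted p = 0.023), with 87.3 to 258 CPM over the 6 Mt samples and 60.6 and 67.2 in Ht. mt-Nd2 had 1300 to 5230 CPM over the Mt samples and 576 and 622 in Ht (-2.28, SE 0.49, adjusted p = 0.0151). mt-Co1 did not pass the test (-1.31, SE 0.55, adjusted p = 0.109): its Mt samples ran from 5540 to 19900 CPM. With total counts 3 mitochondrial members and 0 nuclear ones were called lower (10.3% of all genes, with 15.1% higher). The calls of this comparison were lost when either Ht sample was left out, which leaves Ht without a replicate. The nuclear median was -0.61 in the main fit, -0.74 without Ht_1+3 and -0.5 without Ht_2. The mitochondrial median was -1.31, -1.27 and -1.54. Fewer members were also called without either Mt3 replicate or Mt1 replicate 1. The share of all genes called in these fits is not given here.

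Other genes of the pathway were followed in lists of known members, to be read against the 24.1% of all genes called lower from con to Ht. In this comparison, 8 of 9 genes of complex II, cytochrome c and the electron transfer flavoprotein fell (median -2.35), among them Etfdh, which passes electrons from fatty acid oxidation to ubiquinone (394 to 38.1 CPM, log2 fold change -3.37, SE 0.48, adjusted p = 0.000393; -2.19 with total counts), and Etfa (502 to 51.5 CPM, -3.28). Of 18 genes of the citric acid cycle and its entry points 11 fell (median -1.45), with Pcx, pyruvate carboxylase, from 768 to 54 CPM (-3.83, SE 0.64, adjusted p = 0.000829) and Fh1, fumarase, from 446 to 47.9 (-3.22). Of 45 assembly factors 23 fell (median -1), of 77 genes of the mitochondrial ribosome 21 fell and 2 rose (median -0.64), and of 26 genes of import and the outer membrane 7 fell (median -0.7). The shares of the last 2 lists called lower lie near that of all genes. With total counts the medians of these 3 lists were 0.18, 0.55 and 0.49, so their direction depends on the scaling. The assembly factors then had 2 called lower and 9 higher, the mitochondrial ribosome 1 lower and 14 higher, and import and the outer membrane 0 lower and 5 higher, where 13.1% of all genes were called lower and 51.3% higher. The citric acid cycle list then had a median of -0.26, with 5 called lower and 7 of 18 above 0, and the complex II list a median of -1.17, with 5 of 9 called lower (13.1% of all genes).

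Of 29 genes that keep and transcribe the mitochondrial genome, 11 fell and 1 rose from con to Ht (median -0.78, and 0.41 with total counts, when 0 were called lower and 5 higher). Tfam, which packages and helps transcribe mitochondrial DNA, had 70.1 CPM in con and 29.6 in Ht (-1.25, SE 0.21, adjusted p = 0.000786; -0.06 with total counts). Polrmt, the mitochondrial RNA polymerase, had 43.6 and 21 (-1.05, SE 0.18, adjusted p = 0.000905; 0.14 with total counts). Polg, the mitochondrial DNA polymerase, had 84.1 and 42.7 (-0.98, SE 0.17, adjusted p = 0.000956) and missed the fold threshold. Its direction turned with total counts (0.21). Ppargc1a, a coactivator of respiratory genes, had 15.1 and 0.684 CPM (-4.51, SE 1.04, adjusted p = 0.00448; -3.31 with total counts), and 6 of the 13 regulators fell and 2 rose (median -0.98), whereas with total counts 4 were called lower and 5 higher (median 0.2).

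Between the sorted populations no member was called. edgeR called 0 of 88 members and 0.0771% of all 14263 genes (0.0701% lower, 0.00701% higher), of which 10.5% had an unadjusted p under 0.05, as had 30 members; DESeq2 called 0 members and 300 genes. From CD11b+TAM to F4/80+TAM the median log2 fold change was -0.73 for nuclear members and 0.23 for mitochondrial ones (all genes, 0). Without CD11b+TAM_3 these medians were -0.21 and 0.07, so that library carries most of both. In 57 of 76 nuclear members every F4/80+TAM library lay below every CD11b+TAM library, against 11.8% of all genes. This held for 0 of 12 mitochondrial members. mt-Nd2 had 616, 682 and 686 CPM in F4/80+TAM and 536, 453 and 459 in CD11b+TAM, and was not called (adjusted p = 0.407). mt-Co3 and mt-Nd3 had values below 0, at -0.06 and -0.51. Cox4i1 had 278, 265 and 258 CPM in F4/80+TAM and 290, 315 and 725 in CD11b+TAM. mt-Co1 had 7340, 7820 and 8110 in F4/80+TAM and 7810, 7420 and 4800 in CD11b+TAM. In both genes CD11b+TAM_3 is the library that differs, and the other 2 lie near the F4/80+TAM libraries.

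CD11b+TAM_3 had a log2 ratio of mitochondrial to nuclear counts of -0.66, against 0.9 and 0.73 in CD11b+TAM_1 and CD11b+TAM_2 and 0.94, 1.11 and 1.16 in F4/80+TAM. Against the other 2 libraries of its group, its nuclear members had a median log2 ratio of CPM of 0.8 and its mitochondrial members of -0.74. Its neutrophil markers summed to 4000 CPM against 1420 and 1310, its macrophage markers to 19300 against 13800 and 12500, and its hepatocyte markers to 236 against 94.9 and 77.5. Among genes that are no members this ratio went from 1.14 in the shortest of 6 length classes to -0.83 in the longest, and among nuclear members from 1.06 to -0.12, with 1 member in each of these end classes. A tilt of smaller size separated Ht_1 from Ht_3, from 0.76 to -0.19 in genes that are no members. Nuclear members as a whole had 0.43 there and mitochondrial ones -0.14. Ht_1 against Ht_2 went from 0.64 to -0.13, with 0.44 for nuclear and -0.12 for mitochondrial members. Ht_2 against Ht_3 went from 0.06 to -0.06, with 0 and 0.03. Ht_1 is thus the Ht library that stands apart, although the methods give Ht_1 and Ht_3 as identical. The part of transcript length and of these markers in the difference between the populations was not tested. Without CD11b+TAM_3 no member was called either, and the difference in the log2 ratio from CD11b+TAM to F4/80+TAM went from 0.75 to 0.26.

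**Figure D5:**
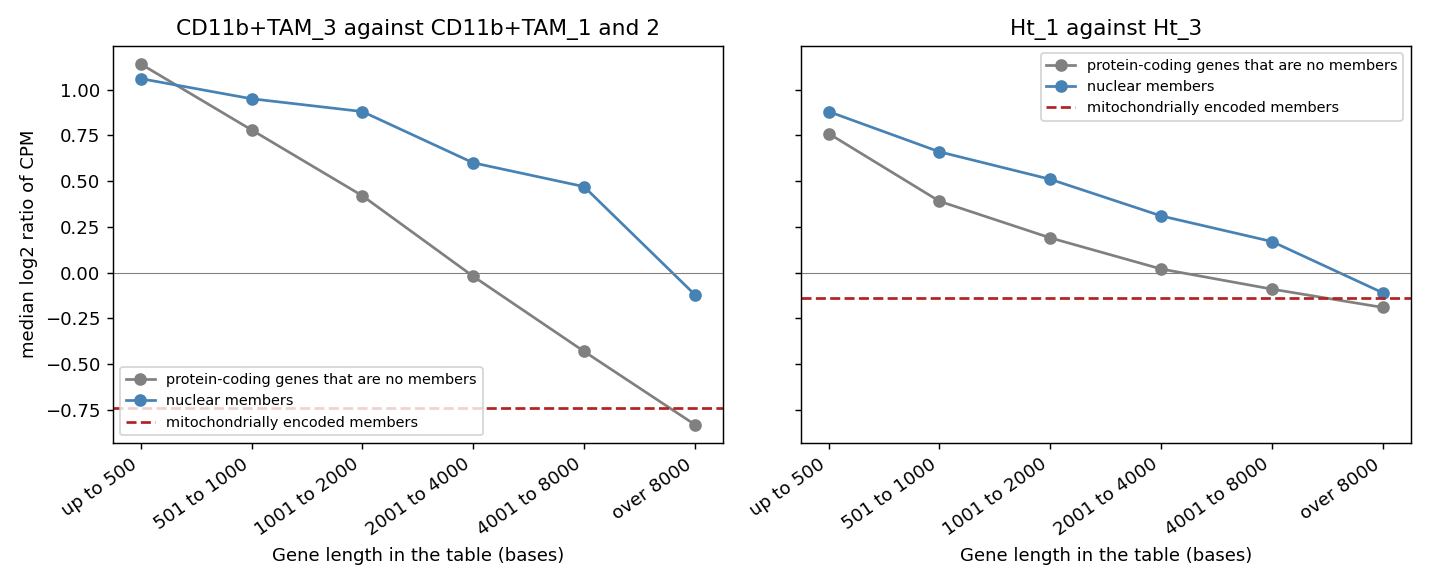
Median log2 ratio of CPM by gene length in CD11b+TAM_3 against the other 2 libraries of its group (left) and in Ht_1 against Ht_3 (right), for nuclear members and for protein-coding genes that are no members; the dashed line is the median of the mitochondrially encoded members. Short genes lie above long ones in both, from 1.14 to -0.83 for other genes at left.

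The sorted cells were also set against the Mt2 tissue libraries, which match them in tumor content and day. By their Xist and Ddx3y counts, these libraries and the sorted cells did not come from the same mice. Of the 13 mitochondrial members, 7 were called lower in F4/80+TAM and 8 in CD11b+TAM; mt-Co1, mt-Co2, mt-Co3, mt-Atp6 and mt-Atp8 were called in neither. From Mt2 to F4/80+TAM, 30 members fell and 2 were higher, with 25.2% of all 18407 genes called lower and 17.2% higher. Of 77 nuclear members 23 fell (medians -0.66 for nuclear and -1.19 for mitochondrial members; all genes, -0.12). Without Mt2 replicate 1 these medians were -0.36 and -0.49. From Mt2 to CD11b+TAM, 8 mitochondrial and 5 nuclear members fell and 3 were higher, with 26.3% of all genes lower and 17.6% higher (medians -1.43 and -0.1; all genes, -0.08). Without CD11b+TAM_3 the nuclear median of this comparison was -0.53 and the mitochondrial -1.38 (all genes, -0.13). The nuclear median was 0.1 without CD11b+TAM_1 and 0.08 without CD11b+TAM_2. Without Mt2 replicate 1 the nuclear median from Mt2 to CD11b+TAM was 0.22 and the mitochondrial -0.78, and without Mt2 replicate 2 they were -0.31 and -2.15. The 23 of 77 nuclear members called lower in F4/80+TAM lie near the share of all genes. mt-Nd2 had log2 fold changes of -2.21 (SE 0.37, adjusted p = 0.000141) and -2.72 (SE 0.37, adjusted p = 2.17e-05). mt-Co1 turned its direction without Mt2 replicate 1, to 0.3 and 0.03. Fewer members were called in both comparisons without Mt2 replicate 1. That left Mt2 without a replicate, and the share of all genes called then is not given here. Hepatocyte markers summed to 111000 CPM in Mt2_1 and 28800 in Mt2_2. Fibroblast and stellate cell markers summed to 3530 to 5720 CPM in Mt2, 362 to 549 in F4/80+TAM and 173 to 324 in CD11b+TAM. In the same order, erythroid markers had 130 to 252, 30.3 to 105 and 8.45 to 24.4 CPM. Macrophage markers went the other way, with 1800 to 1970, 14300 to 17400 and 12500 to 19300 CPM. The part of all these markers in the members' values was not tested. Tissue and sorted cells came in separate tables and differ in Xist and Ddx3y, so that sorting, the table and the sex of the mice cannot be told apart.

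Among the nuclear members, Ndufa4 fell from Mt2 to F4/80+TAM by 2.03 on the log2 scale (-2.03, SE 0.31, adjusted p = 6.1e-05) and to CD11b+TAM by 1.51 (-1.51, SE 0.3, adjusted p = 0.000691). Its level per length was 154 ± 52.5 FPKM in Mt2 (SD, n = 2), 37.5 ± 2.12 in F4/80+TAM and 54 ± 20.9 in CD11b+TAM (n = 3 each). Cox6c fell to F4/80+TAM (-1.6, SE 0.33, adjusted p = 0.00082) and was not called to CD11b+TAM, a difference that was not tested. Ndufa4l2 was called lower in both, with 29 and 24 counts in Mt2, 1, 2 and 0 in F4/80+TAM and 0, 7 and 8 in CD11b+TAM. The isoforms Cox4i2 and Cox6b2 were higher in both populations than in Mt2: Cox4i2 had 1 and 5 counts in Mt2, 20, 58 and 27 in F4/80+TAM and 49, 26 and 160 in CD11b+TAM, and Cox6b2 2 and 9, 21, 47 and 34, and 29, 33 and 64. Cox6a2, with 4 and 16 counts in Mt2 and 34, 27 and 50 in CD11b+TAM, was called higher in CD11b+TAM and, with 27, 10 and 22 counts, not in F4/80+TAM (adjusted p = 0.198), a difference that was not tested.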

How the data were processed

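The authors deposited raw read counts per gene for 14 tissue libraries and 6 libraries of sorted cells, without normalization. Per the submitters' processing notes, reads were aligned with HISAT2 2.0.5 and counted with featureCounts 1.5.0-p3 on GRCm38; the handling of multiply aligned reads and the strand setting are not given in the sources used here, and the library kit named in the labels was NEBNext Ultra RNA. All columns of per-sample values were mapped by name, with 0 left unmapped. Groups and replicate numbers came from the sample labels. Ht_1 and Ht_3, made identical according to the methods, were summed. Depth was 16032085 to 20548370 counts a library, and the floor of 3 counts covers counting error only.

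Tests used R 4.3.3 and edgeR 4.0.16: TMM scaling, filterByExpr, the quasi-likelihood F test and Benjamini-Hochberg adjustment over all genes tested (17187 for tissue, 14263 for sorted cells, 18407 for both). Calls needed an adjusted p of 0.05 or less and a log2 fold change of 1 or more in either direction. The SE was derived from the F statistic. In the tissue fit, L-con entered but was not tested. Of 94 members, 90 passed the filter in the tissue and joint fits and 88 in the sorted fit. Members, lists and the rule for naming genes were chosen with earlier results of these data known. Genes named were, per class, the 2 with the highest level and those with the largest and smallest fold change from con to Ht, isoform sets, all mitochondrial members, members called where 5 or fewer were, and, of each other list, up to 3 called genes with the largest change plus Ppargc1a, Tfam, Polrmt and Polg. The single genes given for Mt to Ht, for the sorted populations and for Mt2 against them, and the sequences printed, were chosen after their values were seen; alternatives for single genes cover all those named from con to Ht and only that choice elsewhere.

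The fits were tested on simulated data with 200 changed genes. Far fewer genes changed there than were called from con to Ht, so the shares below need not hold for these data. A log2 fold of 1 equals the fold threshold, so that genes estimated below it could not be called. At a log2 fold of 2, 74% were called for con to Ht over 17187 genes, 76% for Mt to Ht, 87% for the sorted populations over 14263 and 70% for Mt2 to F4/80+TAM over 18407; at a log2 fold of 1, 10%, 24%, 32% and 18%. Alternatives were DESeq2 1.42.0, other filters and scaling, no fold threshold, a replicate block, fits of only the groups compared, other treatments of Ht and leaving out each replicate; others were added after the data were seen. Replicate numbers carry no stated pairing, so the fits had no block.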

Additional observations from a re-analysis of the deposited data

Results flagged for a closer look

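The tumor-free liver L-con, with a single library, enters no comparison. Its log2 ratio of mitochondrial to nuclear member counts was 2.32, above both con libraries (1.98 and 2.2), with mitochondrial members at 5.19% and nuclear members at 1.04% of counts. With 1 library this has no replicate check. No group held 4 or more samples, so single samples were not screened for outliers.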

How the results depend on the processing

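The count of members called from con to Ht (77) fell to 20 with total-count scaling and was 65 to 77 without single replicates. From Mt to Ht (14) it was 3 with total counts, 24 with no fold threshold, 5 in a fit of only the groups compared and 0 to 21 without single replicates. From con to Lt (1) it was 4 with DESeq2, 3 with no filter, 0 with at least 10 counts in every library, 3 with only the groups compared and 0 to 1 without single replicates; from Lt to Mt (0) it was 9 with DESeq2, 14 with no filter and 0 to 15 without single replicates. From Mt2 to F4/80+TAM (32) it was 12 to 40, and to CD11b+TAM (16) 7 to 21, without single replicates; between the sorted populations it was 0 in all. With the replicate number as a block, 3 members were called from con to Lt, as with the con numbers crossed, and no other count of calls moved by over 1.5 times. Same-numbered samples correlated at -0.149 for con and Lt, 0.281 to 0.585 for Lt and the Mt groups, -0.363 to -0.23 for the Mt groups and Ht, and -0.136 to 0.0117 for the sorted cells. The labels name no shared animal, so the numbers are not taken as a pairing. For fits without single replicates, the number of all genes called is given only for Lt to Mt without Mt2 replicate 1. These counts therefore do not show whether members lost calls more than other genes did.

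The differences in log2 ratio kept their direction except from Mt2 to F4/80+TAM, -0.18, which became 0.05 without Mt2 replicate 1 and ranged from -0.41. With the median of log2(CPM + 1) the differences were -0.54 from Mt to Ht, -0.98 from con to Ht and -0.52 from Mt2 to F4/80+TAM, and without mt-Nd6 and mt-Co1 the last was -0.78. Single replicates left out gave -0.36 to -0.14 (con to Lt), -0.37 to -0.21 (Lt to Mt), -0.94 to -0.67 (Mt to Ht), -1.48 to -1.21 (con to Ht), 0.26 to 1.04 (sorted) and -1.22 to -0.44 (Mt2 to CD11b+TAM).

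Of single genes from con to Ht, total counts turned Atp5g2 to 0.95, Cox8a to 0.15, Uqcr10 to 0.04, Ndufa2 to 0.19, Ndufa12 to 1.03, Cox7a2l to 0.91 and Ndufa4l2 to 0.18. Ndufa12 was 0.11 without con replicate 2. Cox4i2 was -0.38 with Ht replicate 1 left out of the sum and -0.85 without Ht replicate 1+3. mt-Co1 ranged from -0.76 to 0.3 (Mt2 to F4/80+TAM) and from -1.03 to 0.03 (Mt2 to CD11b+TAM) over single replicates left out, both upper values without Mt2 replicate 1. The causes of these changes were not tested.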
